A study of Saccharomyces cerevisiae with 20 samples.

Results

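The genes described here are the nuclear genes of the tricarboxylic acid (TCA) cycle and of the respiratory chain of *Saccharomyces cerevisiae*, with *HAP4*. They were chosen by name and not by a cut on any value, although earlier results of these data were known. They comprise 9 subunits of complex IV, 9 of complex III, 2 cytochromes *c*, 4 subunits of complex II, 13 of ATP synthase, 3 NADH dehydrogenases, 11 TCA cycle genes and *HAP4*, 52 of the 6575 ORFs in the table. All 52 reached a median of at least 1 CPM (counts scaled to the summed ORF counts of each library) over the libraries, as did 5772 ORFs in all. RNA was sequenced from 5 strains of F45, a *MAT*a haploid that makes structured, "fluffy" colonies, each carrying a low copy (CEN) plasmid with *TOS8*, *SFL1*, *HEK2*, *SAN1* or *ROF1* (*YHR177W*) under its native promoter. All of them share the F45 background, in which *ho* is deleted with hphMX6, *SPS2* is tagged (*SPS2*:*EGFP*:*natMX4*) and an unmapped serine auxotrophy is present, and all grew for 4 d at 30° on YPD with 2% glucose and G418, which keeps the plasmid. Each strain gave 4 replicate samples, each of several pooled colonies, so differences between cells within a colony are averaged, and lower RNA per cell cannot be told from fewer cells that use a gene. A strain with empty vector and one with a *DIG1* plasmid were not analysed here, and each comparison is between overexpression strains.

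In respiring yeast, the TCA cycle oxidizes acetyl-CoA in the mitochondrial matrix and hands electrons as NADH, or at complex II as reduced flavin, to the respiratory chain. Yeast lacks a proton-pumping complex I and uses single-subunit NADH dehydrogenases instead, after which complex III, cytochrome *c* and complex IV pass the electrons to oxygen and ATP synthase uses the proton gradient. High glucose represses many of these genes, and the Hap2/3/4/5 complex, which binds the sequence CCAAT and whose regulated subunit is Hap4, activates many of them when glucose runs out. Heme and oxygen act on some of them through Hap1 and Rox1, and subunit 5 of complex IV and cytochrome *c* each have alternative isoforms.

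The promoters of most of these genes held the Hap complex core. The letters CCAAT were searched on both strands of a 300 base window, 250 bases before to 50 after the first base of the coding sequence, and stood in 40 of the 52 windows (76.9%), against 2572 of the 5772 windows of all tested ORFs (44.6%). They were present in 8 of 9 windows of complex IV, 7 of 9 of complex III, all 4 of complex II, 12 of 13 of ATP synthase and that of *HAP4* itself, but in 6 of 11 of the TCA cycle and in neither cytochrome *c* window. A match is a string of letters and not a measured binding site. All windows are those of the S288c reference genome, and the sequence of F45, which may differ, was not examined. The letters ATTGTT, the core of the sequence bound by the hypoxic repressor Rox1, were searched in the same way after the values had been seen, and stood in 22 member windows (42.3%), against 34.3% of all windows. The windows below are those of the 2 isoforms of subunit 5, which moved in opposite directions in these strains, and of *QCR6* and *ATP15*, which changed in both main comparisons. They are read 5′ to 3′ on the strand of the gene from RefSeq's R64 genome (the build of the counts), and matches to CCAAT or ATTGTT, or to their reverse complements ATTGG and AACAAT, are in capitals.
COX5A, chrXIV:531475-531774, plus strand: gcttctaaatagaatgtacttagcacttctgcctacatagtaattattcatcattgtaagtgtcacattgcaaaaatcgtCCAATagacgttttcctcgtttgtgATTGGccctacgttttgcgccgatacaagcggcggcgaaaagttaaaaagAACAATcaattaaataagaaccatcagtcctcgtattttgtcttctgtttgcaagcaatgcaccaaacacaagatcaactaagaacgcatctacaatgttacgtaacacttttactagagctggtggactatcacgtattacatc
COX5B, chrIX:154972-155271, plus strand: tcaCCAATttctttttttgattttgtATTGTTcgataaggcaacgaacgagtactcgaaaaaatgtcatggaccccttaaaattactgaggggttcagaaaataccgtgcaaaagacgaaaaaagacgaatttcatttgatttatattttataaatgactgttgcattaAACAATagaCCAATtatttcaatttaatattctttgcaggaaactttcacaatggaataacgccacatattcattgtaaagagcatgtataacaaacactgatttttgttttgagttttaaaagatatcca
QCR6, chrVI:224720-225019, minus strand: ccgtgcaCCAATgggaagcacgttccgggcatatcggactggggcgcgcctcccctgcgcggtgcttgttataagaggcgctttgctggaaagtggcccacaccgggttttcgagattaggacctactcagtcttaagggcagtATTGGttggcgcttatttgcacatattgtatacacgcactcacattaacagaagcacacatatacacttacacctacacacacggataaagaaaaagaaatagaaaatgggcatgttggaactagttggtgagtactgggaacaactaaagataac
ATP15, chrXVI:29829-30128, plus strand: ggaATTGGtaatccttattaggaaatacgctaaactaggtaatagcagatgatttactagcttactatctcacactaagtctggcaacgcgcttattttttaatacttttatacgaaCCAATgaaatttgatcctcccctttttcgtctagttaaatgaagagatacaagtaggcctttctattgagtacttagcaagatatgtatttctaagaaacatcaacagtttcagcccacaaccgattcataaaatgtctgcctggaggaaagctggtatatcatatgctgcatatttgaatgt

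*COX5A* had CCAAT 170 bases before the start codon and, on the other strand, 145 bases before it, with an ATTGTT match 95 bases before it. *COX5B* had CCAAT 247 and 72 bases before the start codon and ATTGTT matches 224 and 81 bases before it. *QCR6* and *ATP15* each had 2 CCAAT matches, 243 and 106 bases and 247 and 133 bases before their start codons, and no ATTGTT match.

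Each plasmid-borne gene was highest in its own strain, without overlap: *TOS8* averaged 292 CPM there and at most 86.1 elsewhere, *SFL1* 235 and at most 59.7, *HEK2* 265 and at most 88.9, *SAN1* 98.3 and at most 44.9, and *ROF1* 25.6 and at most 10. Total counts ranged from 6027147 to 35027485, with medians of 22761754 in the TOS8 strain, 16474114 in SFL1, 27771659 in HEK2, 10829738 in SAN1 and 11877193 in ROF1, so SFL1 and HEK2 libraries were on the whole deeper than those of SAN1 and ROF1. The lowest raw count of any member in any library was 340. Markers of *MAT*a cells were present in each library at 322 to 797 summed CPM (5 genes), those of *MAT*α cells summed to 20.6 to 39.2 CPM (3 genes, of which *MFALPHA2* stayed at or below 1.3 CPM) and 5 meiotic genes to 27.9 to 54.9 CPM. The *MAT*a list was itself at 322 to 395 CPM in TOS8, 375 to 420 in SFL1, 428 to 547 in HEK2, 593 to 740 in SAN1 and 587 to 797 in ROF1, and its part in the results below was not tested. A few libraries stood apart from their strain over the 52 members: the median member of HEK2 replicate 4 was 0.01 above its mean over all libraries on the log2 scale, against −0.26 to −0.15 in the other HEK2 libraries, and that of ROF1 replicate 4 was −0.06, against 0.07 to 0.22 in the other ROF1 libraries. SAN1 replicate 2, at −0.09, was the lowest of its strain, whose other libraries were at 0.01 to 0.13. Counts are given below with and without these libraries.

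The first question was whether these genes differ between strains at all. With the quasi-likelihood test of edgeR, fitted to all 20 libraries together and adjusted by Benjamini-Hochberg over 5772 ORFs, and a threshold of 0.01 on the adjusted p (used for all genes), 33 of the 52 members (63.5%) differed between some of the 5 strains, against 58.5% of all ORFs tested, so the share was close to the background. The members that differed were spread unevenly: 8 of 9 in complex IV, 5 of 9 in complex III, both cytochromes *c*, 3 of 4 in complex II, 10 of 13 in ATP synthase, 2 of 3 NADH dehydrogenases and 3 of 11 in the TCA cycle. Levels per length ranged from a mean of 46.3 RPKM for *NDE2*, the minor external NADH dehydrogenase, and 146 RPKM for *COX5B* to 5476 RPKM for *SDH4* and 6509 RPKM for *COX9*. Summed over all members, normalized CPM (scaled by TMM factors) averaged 64743 ± 2298 in TOS8, 55212 ± 1940 in SFL1, 55432 ± 4971 in HEK2, 62365 ± 3863 in SAN1 and 64282 ± 5522 in ROF1 (SD, n = 4 each), and the members took 4.95 to 6.94% of the ORF counts of a library.

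**Figure D1:**
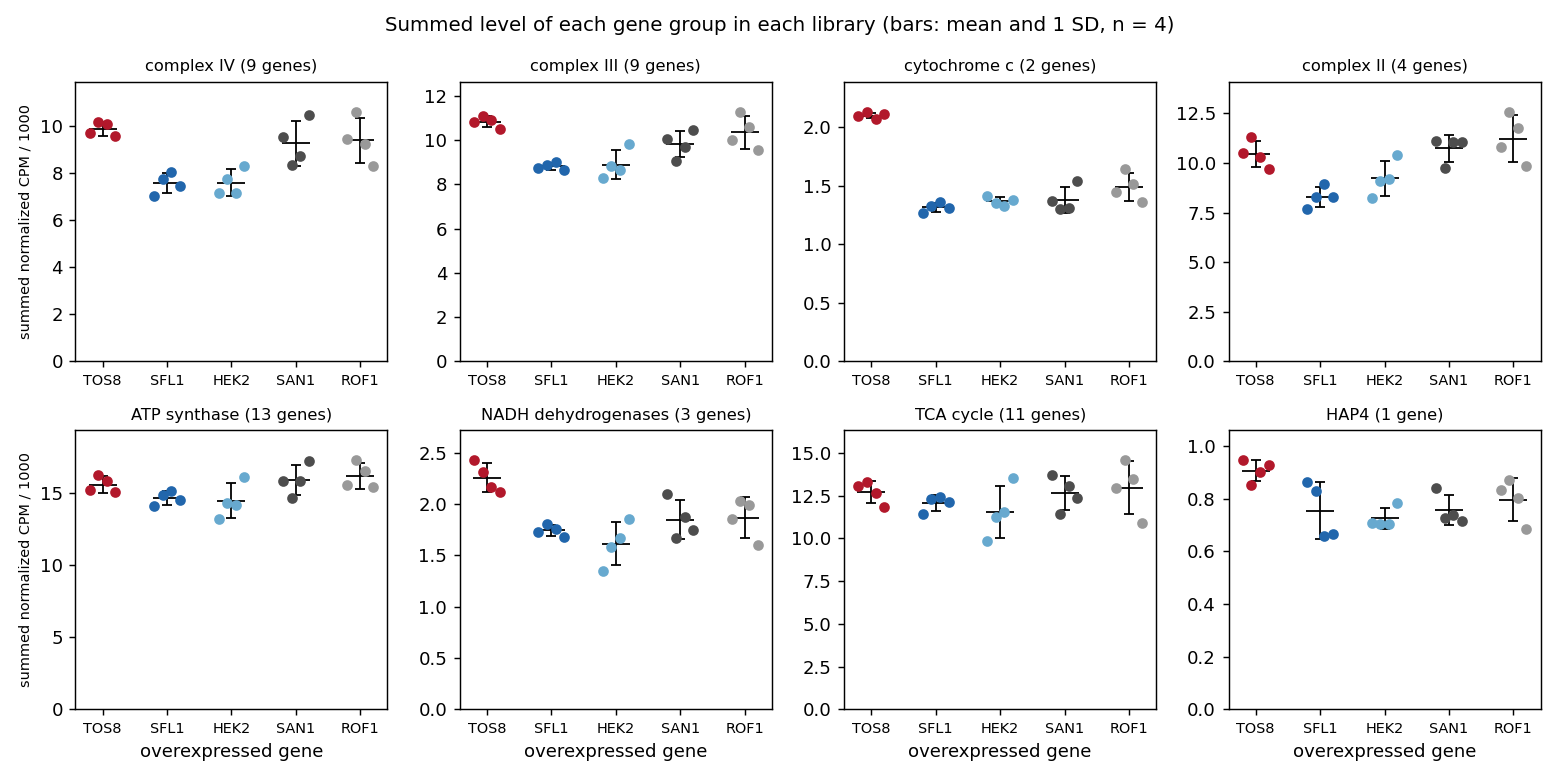
Summed normalized CPM divided by 1000 (y axis) of each gene group in each library (points) by overexpressed gene (x axis), with mean and 1 SD (bars, n = 4). In cytochrome *c* the 4 TOS8 libraries, at 2069 to 2129, were above the other 16. In each group the SFL1 and HEK2 means were the lowest, in *HAP4* narrowly (755 and 725, against 756 in SAN1).

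The summed levels of some of the groups follow. Complex IV summed to 9867 ± 294 CPM in TOS8, 7550 ± 419 in SFL1, 7586 ± 555 in HEK2, 9252 ± 947 in SAN1 and 9369 ± 945 in ROF1 (SD, n = 4 each). Every SFL1 library (7032 to 8016) lay below every TOS8, SAN1 and ROF1 library, while HEK2 replicate 4, at 8304, overlapped with the lowest ROF1 library, at 8268. Complex III averaged 10831 ± 253 CPM in TOS8, 8817 ± 159 in SFL1 and 8902 ± 650 in HEK2. It averaged 9820 ± 597 in SAN1 and 10352 ± 736 in ROF1. Complex II averaged 10446 ± 670 CPM in TOS8, 8288 ± 516 in SFL1 and 9221 ± 898 in HEK2. Its means were 10735 ± 670 in SAN1 and 11226 ± 1182 in ROF1. Cytochrome *c* was at 2101 ± 25.4 CPM in TOS8 and between 1316 ± 40.4 in SFL1 and 1493 ± 121 in ROF1 elsewhere. The TCA cycle had means of 12719 ± 634 CPM in TOS8, 12065 ± 450 in SFL1, 11538 ± 1511 in HEK2, 12641 ± 983 in SAN1 and 12969 ± 1545 in ROF1, and the libraries of all 5 strains overlapped.

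In the strain overexpressing *TOS8*, which encodes a homeodomain transcription factor, 24 of the 52 members differed from the mean of the other 4 strains, against 48.3% of all ORFs, so that the share called (46.2%) was at the background. Their direction was not evenly split: 21 were higher and 3 lower, while 24.5% of ORFs were higher and 23.7% lower. The median log2 fold change was 0.18 over the members and −0.01 over all ORFs, with 42 members positive and 10 negative. The changes were small, and besides *CYC7* and *NDE2* no member both passed the test and changed by more than 1.5-fold. In 5 members, *QCR2*, *CYC7*, *SDH1*, *ATP15* and *TIM11*, each of the 4 TOS8 libraries was above all 16 others, as in 11.1% of ORFs, and in 0 members all 4 were below, as in 9.96% of ORFs. Without HEK2 replicate 4 the count was 29, without SAN1 replicate 2 it was 23, and without ROF1 replicate 4 it was 24, each with 3 lower.

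**Figure D2:**
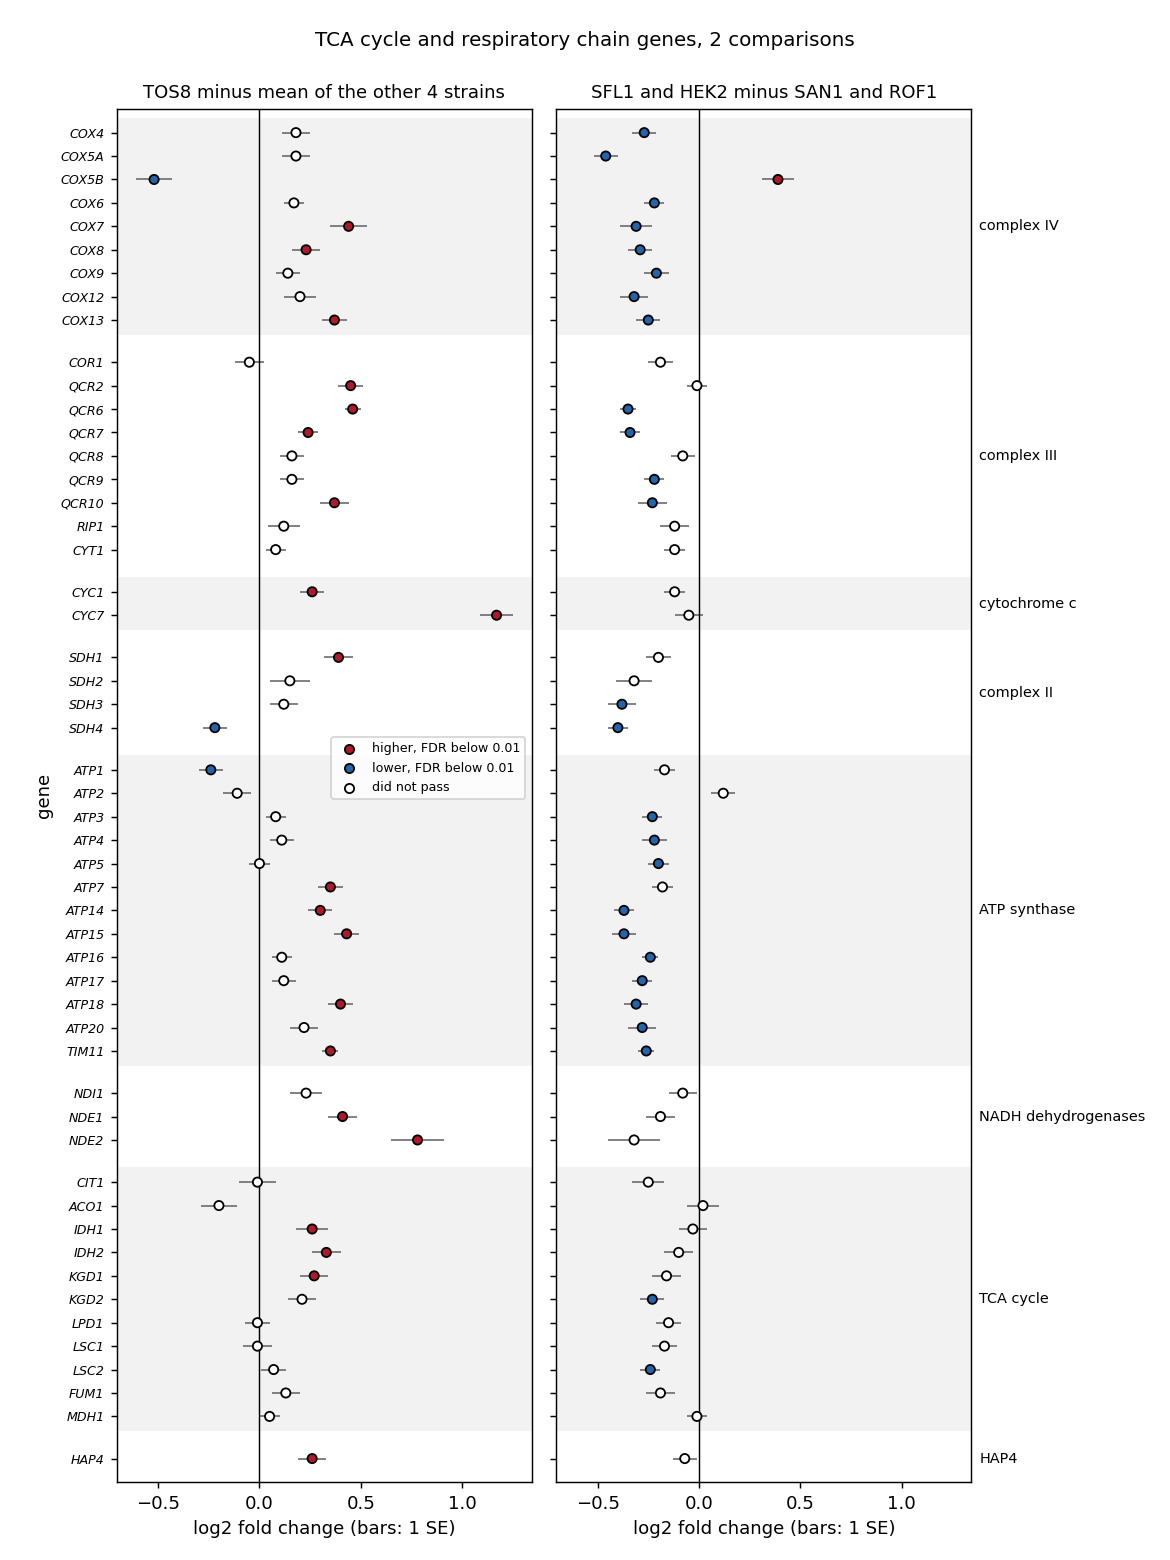
Log2 fold change (x axis, bars 1 SE) of each member (rows, by complex) in TOS8 against the mean of the other 4 strains (left) and in SFL1 and HEK2 against SAN1 and ROF1 (right), with genes past a false discovery rate of 0.01 filled. On the left 21 members are filled to the right of 0 and 3 to the left, and on the right 26 are filled to the left and only *COX5B* to the right.

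Cytochrome *c* changed most. *CYC7* (YEL039C, chrV:79636-79977), the isoform 2 gene, known as the form made when oxygen or heme is scarce, had 1003, 928, 921 and 922 CPM in the TOS8 libraries, against 354 to 552 (median 404) in the other 16. The 2 sets did not overlap, and the fold change was 2.25 (log2 1.17 ± 0.08 SE, adjusted p = 3.5e-10). *CYC1* (YJR048W, chrX:526335-526664), the isoform 1 gene that dominates in aerobic cells, had 1093, 1201, 1148 and 1189 CPM in TOS8 and 859 to 1127 (median 952) in the others, a log2 difference of 0.26 ± 0.06 (adjusted p = 0.00053). Here the lowest TOS8 library fell within the range of the others. The log2 ratio of *CYC7* to *CYC1* was −0.30 ± 0.12 in TOS8, against −1.23 ± 0.15 in SFL1, −1.13 ± 0.22 in HEK2, −1.39 ± 0.06 in SAN1 and −1.11 ± 0.32 in ROF1 (SD, n = 4 each). This ratio was higher in each TOS8 library than in any other, with a mean difference of 0.92 (two-sided exact permutation of 4 against 16 libraries, p = 0.00021, the smallest possible, adjusted p = 0.00062 over 3 ratios, which were held to 0.05).

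The isoforms of complex IV subunit 5 went the other way. *COX5B* (YIL111W, chrIX:155222-155765), the hypoxic isoform and a textbook target of Rox1, had 65.1, 53.3, 54.1 and 62.4 CPM in TOS8 and 58.6 to 115 (median 85) in the other 16. It was lower in TOS8 (log2 −0.52 ± 0.09, adjusted p = 3.5e-05), although SAN1 replicates 1 and 4 and ROF1 replicate 3 (58.6 to 64.1 CPM) overlapped with it. By pair, *COX5B* passed against SFL1 (log2 −0.60), HEK2 (−0.83) and ROF1 (−0.44) but not against SAN1. *COX5A* (YNL052W, chrXIV:531725-532186), the aerobic isoform, had 1932, 2067, 1984 and 1816 CPM in TOS8 and 1309 to 2313 (median 1670) in the others, and its log2 difference of 0.18 ± 0.07 did not pass (adjusted p = 0.029). The log2 ratio of *COX5B* to *COX5A* averaged −5.05 ± 0.21 in TOS8, −4.00 ± 0.18 in SFL1, −3.87 ± 0.19 in HEK2, −4.90 ± 0.31 in SAN1 and −4.67 ± 0.40 in ROF1. The difference between TOS8 and the other 16 libraries was −0.69 (exact permutation, p = 0.021, adjusted p = 0.021, past 0.05 but not the 0.01 used for genes), and 3 of the 4 TOS8 libraries lay within the range of the others, whose lowest was −5.21. Without TOS8 replicate 2 it was −0.62 (adjusted p = 0.068) and without TOS8 replicate 3 it was −0.65 (adjusted p = 0.063). The permutation treats the 16 libraries as exchangeable, but the means of SFL1 and HEK2 lay above those of SAN1 and ROF1 in this ratio. Its p therefore does not measure a difference of TOS8 from each of the other strains.

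**Figure D3:**
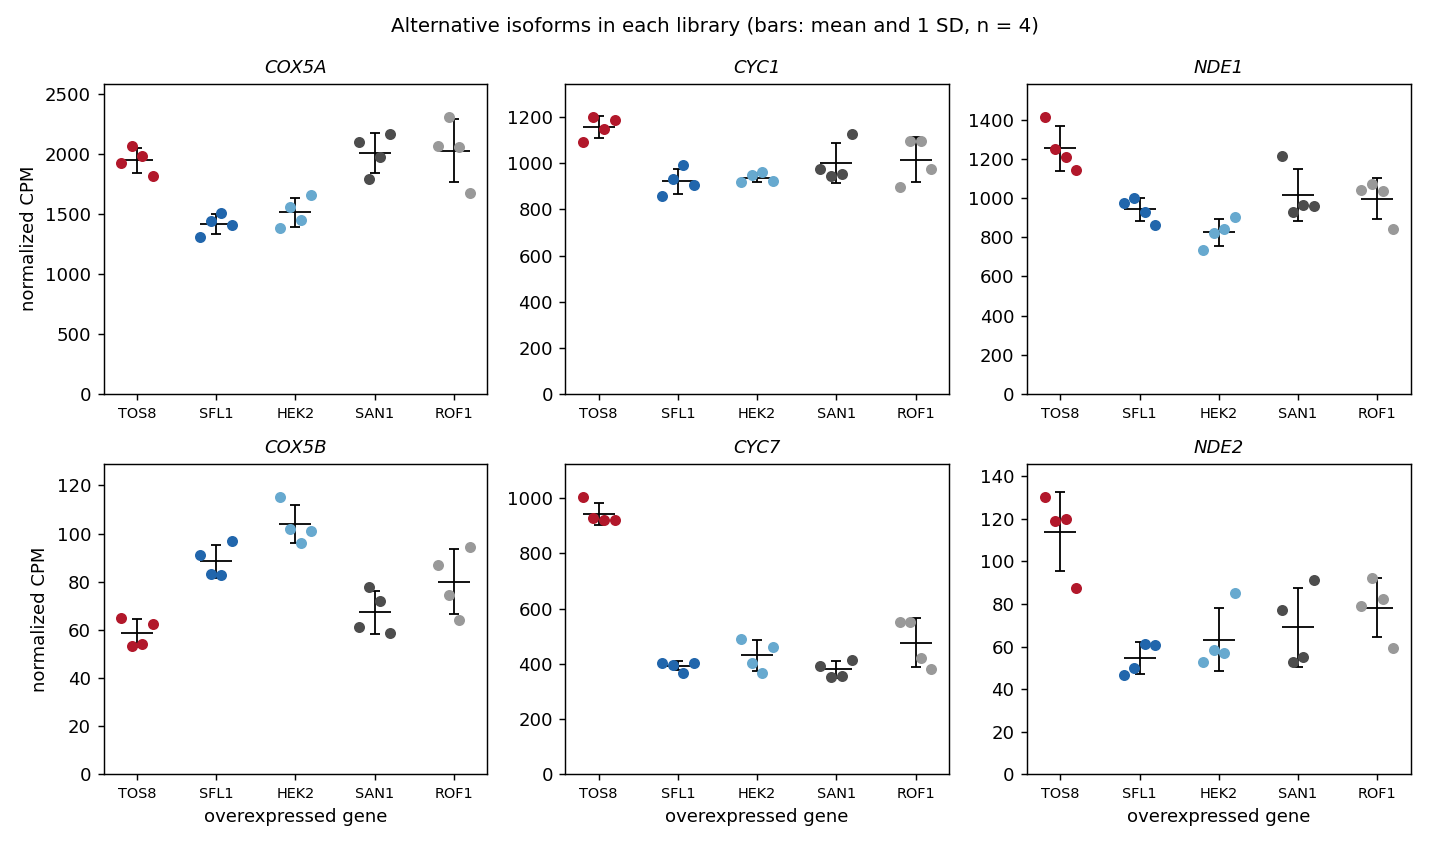
Normalized CPM (y axis) of the genes of 3 isoform or paralog pairs in each library (points) by overexpressed gene (x axis), with mean and 1 SD (bars, n = 4). *CYC7* lies at 921 to 1003 in TOS8 and below 600 elsewhere, and *COX5B* is highest in the HEK2 and SFL1 libraries, where *COX5A* is lowest.

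Among the other complex IV subunits, *COX7*, *COX8* and *COX13*, all small nuclear subunits, were higher in TOS8 than the mean of the other strains. By pair, these passed against SFL1 and HEK2 but not against SAN1 or ROF1. *COX7* (YMR256C, chrXIII:778945-779127) had 1157, 1239, 1318 and 1263 CPM in TOS8, against 674 to 1376 (median 886) in the other 16 (log2 0.44 ± 0.09, adjusted p = 0.00027). The groups overlapped through a single SAN1 library at 1376 CPM. The rise of *COX8* (log2 0.23 ± 0.07, adjusted p = 0.0069) no longer passed without any 1 of the 4 TOS8 libraries or of 3 others, HEK2, SAN1 and ROF1 replicate 3.

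In complex III, 4 of 9 members rose in TOS8 and none fell. *QCR6* (YFR033C, chrVI:224326-224769), the acidic hinge subunit, had 1113, 1050, 1065 and 1023 CPM in TOS8, against 654 to 1026 (median 738) in the others (log2 0.46 ± 0.04, adjusted p = 2.9e-08). Only ROF1 replicate 2, at 1026 CPM, reached into the TOS8 range. *QCR2* (YPR191W, chrXVI:919381-920487), a core subunit, had 1002, 1025, 962 and 936 CPM in TOS8 and 609 to 798 (median 722) in the others, without overlap (log2 0.45 ± 0.06, adjusted p = 1.1e-06). *QCR7* and *QCR10* rose by 0.24 and 0.37 on the log2 scale, whereas *COR1*, which encodes the other core subunit, was at −0.05 ± 0.07 (adjusted p = 0.56), and the catalytic subunits *RIP1* and *CYT1* did not pass.

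Complex II, which is also a TCA cycle enzyme, did not move as a unit. *SDH1* (YKL148C, chrXI:169207-171129), the flavoprotein, had 2875, 2878, 2668 and 2543 CPM in TOS8, above the 1729 to 2499 (median 2074) of the other libraries (log2 0.39 ± 0.07, adjusted p = 3.7e-05). *SDH4* (YDR178W, chrIV:817950-818495), a membrane anchor, had 2513, 2966, 2537 and 2405 CPM in TOS8, against 2106 to 3781 (median 3189) in the others, and was lower by the test (log2 −0.22 ± 0.06, adjusted p = 0.0039). SFL1 replicates 1, 2 and 4 (2106 to 2271 CPM) were below every TOS8 library, so the groups overlapped, and the fall of *SDH4* did not pass without TOS8 replicate 1, 3 or 4 (log2 −0.21, −0.21 and −0.19). *SDH2* and *SDH3*, which encode the iron-sulfur subunit and the other anchor, did not pass.

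Of the ATP synthase genes, *ATP7*, *ATP14*, *ATP15*, *ATP18* and *TIM11* rose in TOS8 and *ATP1* fell. *ATP15* (YPL271W, chrXVI:30079-30267), the ε subunit of the central stalk, had 857, 914, 917 and 847 CPM in TOS8 and 513 to 837 (median 643) in the others (log2 0.43 ± 0.06, adjusted p = 5.9e-06). The 2 groups did not overlap. *ATP18* (YML081C-A, chrXIII:103983-104162), a small membrane subunit, had 693, 765, 741 and 712 CPM in TOS8, against 454 to 721 (median 544), with overlap (log2 0.40 ± 0.06, adjusted p = 1.2e-05). *ATP1*, the α subunit of the catalytic head, averaged 2901 ± 139 CPM in TOS8 and 3033 ± 230 to 3643 ± 143 in the other strains (SD, n = 4; log2 −0.24 ± 0.06, adjusted p = 0.0014), and *ATP2*, the catalytic β subunit, was at −0.11 ± 0.07 (adjusted p = 0.20). Subunits of one enzyme thus moved in both directions.

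The external NADH dehydrogenases, which oxidize cytosolic NADH, were both higher in TOS8. *NDE1* (YMR145C, chrXIII:554793-556475) had 1415, 1249, 1209 and 1144 CPM in TOS8, against 737 to 1213 (median 946) in the others (log2 0.41 ± 0.07, adjusted p = 6.2e-05). *NDE2* (YDL085W, chrIV:303211-304848) had 130, 119, 120 and 87.4 CPM in TOS8, against 46.5 to 92.2 (median 60.2) (log2 0.78 ± 0.13, adjusted p = 3.4e-05). In each gene at least 1 TOS8 library overlapped with the highest of the others. *NDI1* (YML120C, chrXIII:28266-29807), the internal enzyme that takes NADH from the TCA cycle, had 836 to 942 CPM in TOS8 and 559 to 876 in the others, and its log2 difference of 0.23 ± 0.08 did not pass (adjusted p = 0.018). The log2 ratio of *NDE2* to *NDE1* averaged −3.47 ± 0.17 in TOS8, −4.12 ± 0.28 in SFL1 and −3.73 ± 0.22 in HEK2. It averaged −3.91 ± 0.35 in SAN1 and −3.68 ± 0.12 in ROF1 (SD, n = 4 each). The TOS8 libraries, at −3.71 to −3.34, overlapped with the others, at −4.39 to −3.39. This ratio was 0.39 higher in TOS8 (exact permutation, p = 0.019, adjusted p = 0.021, past 0.05 but not the 0.01 used for genes), and this difference was 0.36 without TOS8 replicate 2 (adjusted p = 0.068) and 0.34 without TOS8 replicate 3 (adjusted p = 0.063).

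In the TCA cycle only *IDH1*, *IDH2* and *KGD1* passed, all higher in TOS8, and these encode both subunits of NAD-dependent isocitrate dehydrogenase and the E1 subunit of α-ketoglutarate dehydrogenase. *IDH2* (YOR136W, chrXV:580250-581359) had 1155, 1120, 1063 and 1024 CPM in TOS8 and 763 to 1061 (median 845) in the others (log2 0.33 ± 0.07, adjusted p = 0.00056). *KGD1* (YIL125W, chrIX:122689-125733) had 1342, 1373, 1282 and 1212 CPM in TOS8 and 821 to 1244 (median 1063) in the others (log2 0.27 ± 0.07, adjusted p = 0.0034). Both overlapped with 1 or more ROF1 libraries, and the call of *KGD1* was lost without TOS8 replicate 1 or 2 (log2 0.25 and 0.24). *IDH1* (log2 0.26 ± 0.08, adjusted p = 0.0078) was called in 20 of 28 alternatives. The other 8 genes ranged from −0.20 for *ACO1* (aconitase, adjusted p = 0.056) to 0.21 for *KGD2*, and *CIT1*, the mitochondrial citrate synthase, was at −0.01 ± 0.09.

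*HAP4* (YKL109W, chrXI:232227-233891) itself had 946, 854, 901 and 928 CPM in TOS8, against 660 to 871 (median 733) in the other 16. ROF1 replicate 2, at 871 CPM, and SFL1 replicate 1, at 865 CPM, lay above the lowest TOS8 library, and the log2 difference was 0.26 ± 0.07 (adjusted p = 0.0032). The call did not hold without TOS8 replicate 1 (log2 0.24) or replicate 4 (log2 0.25), and between any of the 5 strains *HAP4* did not pass (adjusted p = 0.022).

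The other main comparison set the SFL1 and HEK2 strains together against the SAN1 and ROF1 strains together. These sides match the pairs of strains that the paper reports as very similar in these data, so they are not independent of the values. Sfl1 is a repressor of cell-surface flocculin genes and Hek2 an RNA-binding protein, while San1 is a nuclear ubiquitin ligase and Rof1 a putative transcription factor. In SFL1 and HEK2, 27 of the 52 members (51.9%) differed from SAN1 and ROF1, against 23.6% of all ORFs, and 26 of them were lower, against 11.7% of ORFs lower and 11.8% higher. *COX5B* was the exception. The median log2 fold change was −0.22 over the members and 0.00 over all ORFs, 49 members were negative, and no member changed by more than 1.5-fold. In 11 members all 8 SFL1 and HEK2 libraries were below all 8 of SAN1 and ROF1, a separation in this direction that 2.62% of ORFs showed, and in 0 members were they all above, as in 2.91% of ORFs. The count was 36 without HEK2 replicate 4, 34 without ROF1 replicate 4 and 32 without SAN1 replicate 2, each time with only *COX5B* higher.

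All 9 complex IV genes passed. *COX5A* had 1309 to 1663 CPM (median 1448) in SFL1 and HEK2, against 1677 to 2313 (median 2064) in SAN1 and ROF1, a log2 difference of −0.46 ± 0.06 (adjusted p = 1.1e-05) without overlap, although HEK2 replicate 4 and ROF1 replicate 4 nearly met. *COX5B* had 82.6 to 115 CPM (median 96.4) in SFL1 and HEK2 and 58.6 to 94.5 (median 73.1) in SAN1 and ROF1 (log2 0.39 ± 0.08, adjusted p = 0.00044), with overlap. The other 7 subunits were lower by 0.21 (*COX9*) to 0.32 (*COX12*) on the log2 scale. *COX9* was called in 11 of 25 alternatives and *COX7* in 16 of 25, the losses being mostly where a library was left out. The call of *COX9* was also lost with replicate number as a block.

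In complex III 4 of 9 genes passed, those of the small subunits *QCR6*, *QCR7*, *QCR9* and *QCR10*, all lower in SFL1 and HEK2. *QCR6* had 654 to 720 CPM (median 686) in SFL1 and HEK2 and 757 to 1026 (median 867) in SAN1 and ROF1 (log2 −0.35 ± 0.04, adjusted p = 1.6e-06), and *QCR7* had 1103 to 1267 CPM against 1269 to 1858 (log2 −0.34 ± 0.05, adjusted p = 2.7e-05). Neither gene overlapped between the groups. *QCR2*, which rose in TOS8, had 665 to 776 CPM in SFL1 and HEK2 and 609 to 798 in SAN1 and ROF1 (log2 −0.01 ± 0.05, adjusted p = 0.85). The call of *QCR10* (adjusted p = 0.0096) was made in 8 of 25 alternatives, and not with replicate number as a block.

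Neither cytochrome *c* gene passed, with *CYC7* at 369 to 492 CPM (median 404) in SFL1 and HEK2 and 354 to 552 (median 405) in SAN1 and ROF1 (log2 −0.05 ± 0.07, adjusted p = 0.65) and *CYC1* at −0.12 ± 0.05 (adjusted p = 0.078). In complex II both membrane anchors fell in the joint comparison of SFL1 and HEK2. *SDH4* had 2106 to 3267 CPM (median 2728) in SFL1 and HEK2, against 3066 to 3781 (median 3531) in SAN1 and ROF1 (log2 −0.40 ± 0.05, adjusted p = 1.1e-05), and *SDH3* had 1753 to 2264 CPM against 2151 to 3027 (log2 −0.38 ± 0.07, adjusted p = 0.00018). Both overlapped between the groups. The fall of *SDH4* lay mainly in SFL1 (log2 −0.57 against SAN1 and −0.68 against ROF1), while HEK2 did not pass against SAN1 (−0.11 ± 0.08, edgeR adjusted p = 0.3) or ROF1 (−0.23 ± 0.08, adjusted p = 0.025). *SDH1* (log2 −0.20 ± 0.06, adjusted p = 0.013) and *SDH2* (log2 −0.32 ± 0.09, adjusted p = 0.011) did not pass.

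Of the 13 ATP synthase genes, 10 fell in SFL1 and HEK2. *ATP15* had 513 to 632 CPM (median 573) in SFL1 and HEK2, against 653 to 837 (median 755) in SAN1 and ROF1, without overlap (log2 −0.37 ± 0.06, adjusted p = 3.4e-05). *ATP14* (YLR295C), a peripheral stalk subunit, had 338 to 437 CPM against 423 to 598, with overlap (log2 −0.37 ± 0.05, adjusted p = 1.7e-05), and 32 bases of its ORF are shared with YLR294C on the same strand. The exceptions were *ATP1* (log2 −0.17 ± 0.05, adjusted p = 0.012), *ATP2* (0.12 ± 0.06, adjusted p = 0.15) and *ATP7* (−0.18 ± 0.05, adjusted p = 0.011). *ATP1* and *ATP2* encode the subunits that form the catalytic ring.

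None of the NADH dehydrogenases passed in this comparison, and of the TCA cycle genes *KGD2* (called in 11 of 25 alternatives) and *LSC2* did. *LSC2* (YGR244C), the β subunit of succinyl-CoA ligase, had 381 to 453 CPM (median 423) in SFL1 and HEK2, against 453 to 577 (median 491) in SAN1 and ROF1 (log2 −0.24 ± 0.05, adjusted p = 0.001). The ranges met at 453 CPM to the digits shown and did not overlap. *CIT1* was at −0.25 ± 0.08 (adjusted p = 0.013), and passed when HEK2 replicate 4, SAN1 replicate 2 or ROF1 replicate 4 was left out. *HAP4* had 660 to 865 CPM in SFL1 and HEK2 and 685 to 871 in SAN1 and ROF1 (log2 −0.07 ± 0.06, adjusted p = 0.41).

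Strain pairs showed where these differences lay. The pairs with TOS8 share its libraries, so their counts are not independent. In TOS8 against SFL1, 32 members differed (31 higher and 1 lower), against 43.3% of ORFs (21.9% higher and 21.5% lower). In TOS8 against HEK2 33 did (30 higher and 3 lower), against 47.7% of ORFs (24.3% higher and 23.4% lower). TOS8 against SAN1 gave 11 (9 higher and 2 lower), against 30.4% of ORFs (15% higher and 15.4% lower). TOS8 against ROF1 gave 8 (5 higher and 3 lower), against 31% of ORFs (15.5% in each direction). The share of members called was thus above the background against SFL1 (61.5%) and HEK2 (63.5%) and below it against SAN1 (21.2%) and ROF1 (15.4%). The count against SAN1 was 6 or 7 without TOS8 replicate 1 or 2 or SAN1 replicate 2 or 3, and that against ROF1 was 4 or 5 without TOS8 replicate 2 or 3 or ROF1 replicate 1, 3 or 4.

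**Figure D4:**
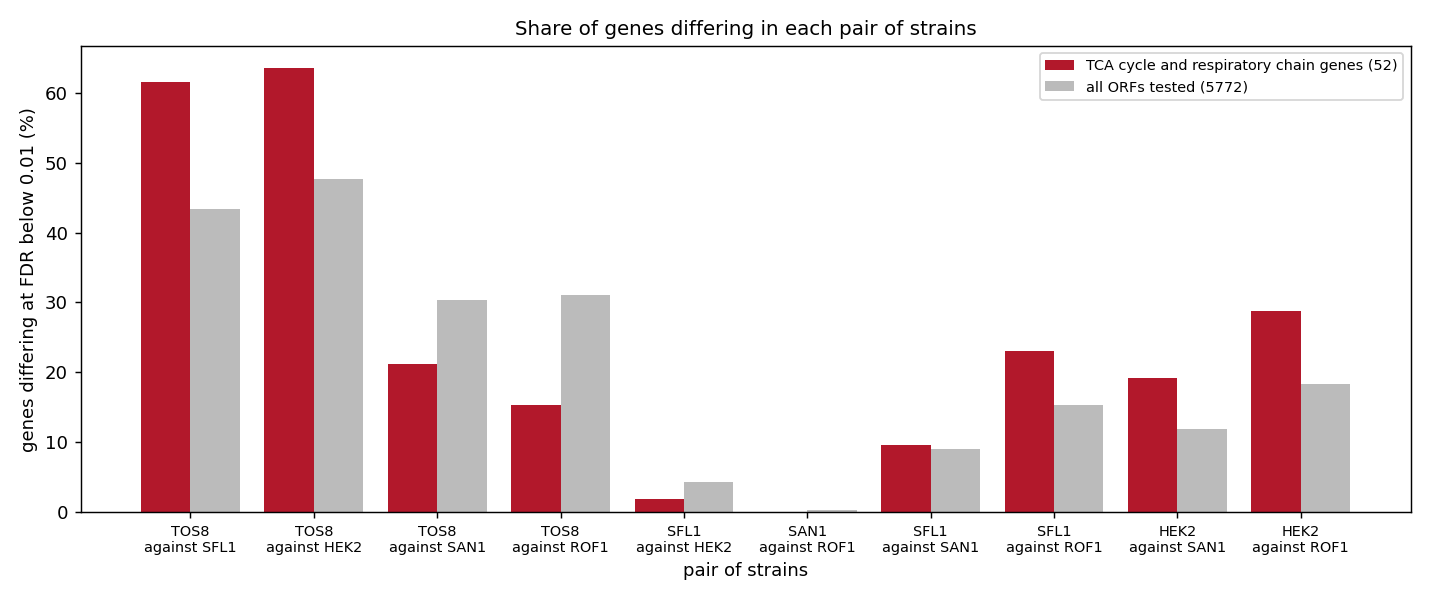
Share of genes (%, y axis) past an adjusted p of 0.01 in each pair of strains (x axis), for the 52 members (red) and for all ORFs tested (grey). The members' share is above that of all ORFs in TOS8 against SFL1 (61.5% and 43.3%) and HEK2 (63.5% and 47.7%), and below it in TOS8 against SAN1 (21.2% and 30.4%) and ROF1 (15.4% and 31%).

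*CYC7*, *QCR2*, *SDH1* and *TIM11*, a subunit needed for ATP synthase dimers, were higher in TOS8 in each of its 4 pairs. The log2 difference of *CYC7* was 1.26 against SFL1, 1.13 against HEK2, 1.31 against SAN1 and 0.98 against ROF1, and that of *QCR2* was 0.48, 0.44, 0.44 and 0.45 in the same order. *NDE2* passed against SFL1 (1.05), HEK2 (0.84) and SAN1 (0.72) but not against ROF1, and whether that pair differs from the others was not tested. Of the genes higher against the 4-strain mean, *COX7*, *COX8*, *COX13*, *QCR7*, *QCR10*, *CYC1*, *ATP14*, *ATP15* and *KGD1* passed only against SFL1 and HEK2. *HAP4* passed only against HEK2, and *IDH1* passed in no pair.

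The strains within each side of the other comparison were close. The paper had reported this over all genes in these data, so it is not an independent result. SFL1 against HEK2 gave 1 member, *SDH4* (log2 −0.45 ± 0.08, adjusted p = 0.00071), against 4.31% of ORFs (3.33% lower in SFL1). *SDH4* had 2106, 2181, 2495 and 2271 CPM in SFL1 and 3111, 3041, 2960 and 3267 CPM in HEK2, without overlap. SAN1 against ROF1 gave 0 members with edgeR, against 0.295% of ORFs, with 5 members at an unadjusted p under 0.05, a smallest adjusted p of 0.014, and 2 called by DESeq2. Without ROF1 replicate 4 edgeR also gave 2.

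Across the sides, SFL1 against SAN1 gave 5 members (against 9.1% of ORFs, 5.46% lower) and SFL1 against ROF1 gave 12 (against 15.3% of ORFs, 7.69% lower). HEK2 against SAN1 gave 10 (against 11.9% of ORFs, 4.78% lower) and HEK2 against ROF1 gave 15 (against 18.3% of ORFs, 7.69% lower). All were lower in SFL1 or HEK2 except *COX5B* in the HEK2 pairs. These pair counts rested on single libraries. That of SFL1 against SAN1 was 2 or 3 without any 1 SFL1 library or SAN1 replicate 3 or 4, and that of SFL1 against ROF1 was 19 without ROF1 replicate 4 and 6 or 7 without SFL1 replicate 2 or ROF1 replicate 1, 2 or 3. HEK2 against SAN1 gave 4 to 6 without HEK2 replicate 1, 2 or 3 or SAN1 replicate 1 or 4, and HEK2 against ROF1 gave 7 without ROF1 replicate 2.

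Genes that act with or beside these members were followed as lists. Over all ORFs, 24.5% were higher and 23.7% lower in TOS8, and 11.8% higher and 11.7% lower in SFL1 and HEK2, and the counts of each list below stand against these shares. Among 7 regulators, 5 rose in TOS8 and 2 fell. *HAP2*, which encodes a DNA-binding subunit of the Hap complex, had 50.2 to 56.4 CPM in TOS8 and means of 37.4 to 42.2 CPM in the other strains (log2 0.46 ± 0.04, adjusted p = 3.2e-08). *ROX1*, the hypoxic repressor, had 500 to 604 CPM in TOS8 and 88.7 to 353 in the others, without overlap (log2 1.59 ± 0.29, adjusted p = 8e-05). In SFL1 and HEK2 against SAN1 and ROF1 only *HAP1*, the heme-responsive activator, passed (log2 0.29 ± 0.04, adjusted p = 4.5e-05).

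Of 9 hypoxia-induced genes, 6 fell in TOS8 and none rose (median log2 −0.75, against 23.7% of ORFs lower). In SFL1 and HEK2, 7 rose and none fell (median 0.98, against 11.8% of ORFs higher). By pair, 7 of these genes were lower in TOS8 against SFL1 (21.5% of ORFs lower) and 6 against HEK2 (23.4%). Against SAN1 3 were lower (median −0.27, 15.4% of ORFs lower) and against ROF1 2 (median −0.45, 15.5%). *DAN1*, a cell wall mannoprotein gene of anaerobic cells, had 5.43 to 17.6 CPM in TOS8, 130 to 177 in SFL1, 85.1 to 114 in HEK2, 5.79 to 45.5 in SAN1 and 11.4 to 67.3 in ROF1 (log2 −2.18 ± 0.38, adjusted p = 6e-05 for TOS8, and 2.05 ± 0.29, adjusted p = 2e-05 for SFL1 and HEK2). *TIR4*, of the same family, was at −1.35 ± 0.17 and 1.15 ± 0.14. *HEM13*, the oxygen-requiring coproporphyrinogen oxidase of heme synthesis, was at −0.75 ± 0.10 and 0.77 ± 0.09. The part of oxygen supply in the members' levels was not tested.

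All 6 genes of the glyoxylate cycle and gluconeogenesis rose in TOS8 (median log2 0.65), and 5 fell in SFL1 and HEK2 (median −0.47). By pair, all 6 were higher in TOS8 against SFL1 (21.9% of ORFs higher) and HEK2 (24.3%). Against SAN1 2 were higher (15% of ORFs higher) and against ROF1 3 (15.5%). *ICL1*, isocitrate lyase, averaged 2613 ± 391 CPM in TOS8, 1199 ± 88.3 in SFL1, 975 ± 108 in HEK2, 1660 ± 333 in SAN1 and 1629 ± 291 in ROF1 (SD, n = 4 each). Of 11 paralogs and accessory subunits, 8 rose in TOS8 and 6 fell in SFL1 and HEK2, among them *RCF2*, a complex IV supercomplex factor (log2 0.84 ± 0.08 and −0.42 ± 0.07). Of the 31 assembly factors 5 were higher and 6 lower in TOS8 (median −0.05), and of the 67 mitochondrial ribosome genes 4 were higher and 7 lower (median −0.04), in each list a smaller share than the 48.3% of ORFs called in either direction. Heme synthesis, which shares *HEM13* with the hypoxia-induced list, had 4 of 8 genes lower in TOS8 and 3 higher in SFL1 and HEK2. By pair, 4 heme genes were lower in TOS8 against SFL1 (21.5% of ORFs lower) and 5 against HEK2 (23.4%). Against SAN1 2 were lower (15.4% of ORFs lower) and against ROF1 1 (15.5%). Pyruvate dehydrogenase had 2 of 4 lower in TOS8.

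**Figure D5:**
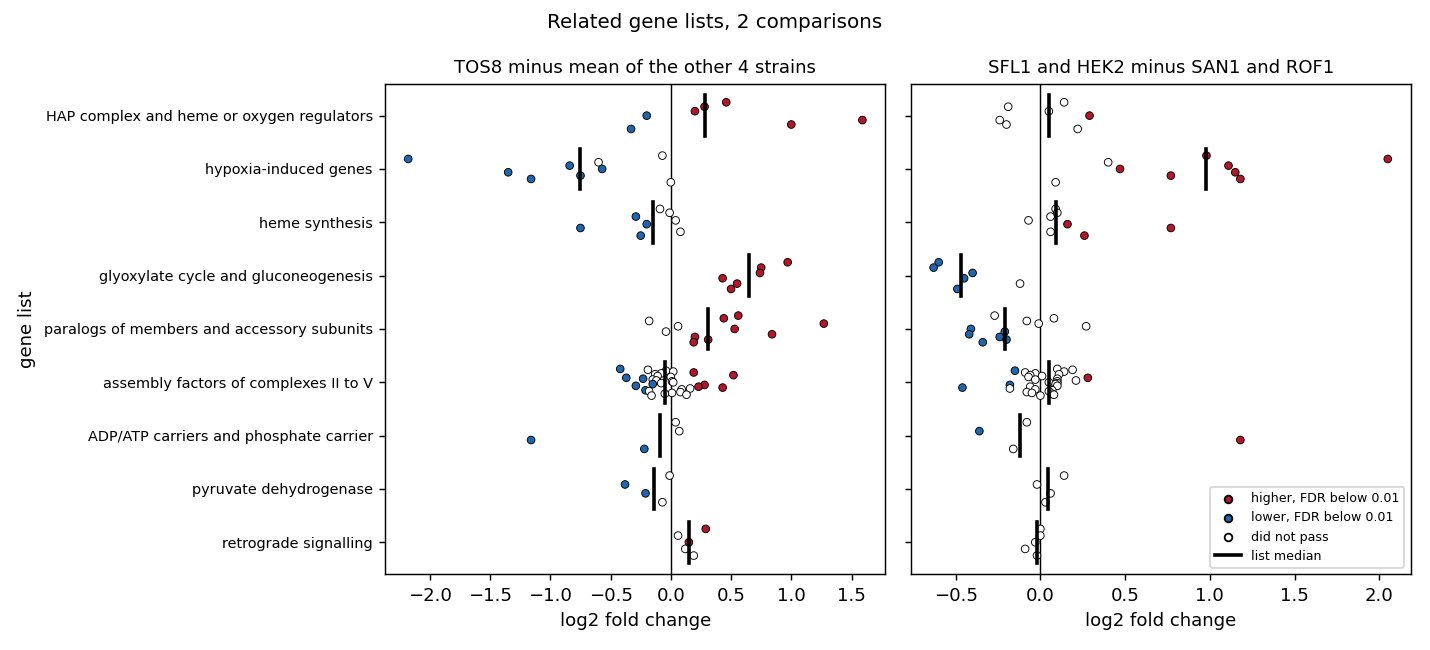
Log2 fold change (x axis) of each gene (points, filled where past an adjusted p of 0.01) of 9 related lists (rows, vertical bar the list median) in TOS8 against the mean of the other 4 strains (left) and in SFL1 and HEK2 against SAN1 and ROF1 (right). Hypoxia-induced genes have medians of −0.75 on the left and 0.98 on the right, and glyoxylate and gluconeogenesis genes of 0.65 and −0.47.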

How the data were processed

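Poly(A) RNA from 20 libraries (5 strains, 4 each) was sequenced by the authors as stranded paired reads, aligned with Bowtie2 2.1.0 and counted per feature with featureCounts 1.4.0 on the R64 build, and the raw counts were deposited by the authors. Mapping quality was not filtered, so *COX5A* and *COX5B*, *CYC1* and *CYC7*, and *NDE1* and *NDE2* may share some reads. Here ORFs whose median over the libraries reached 1 CPM were scaled by TMM and fitted with edgeR 4.0.16 (R 4.3.3), all 20 libraries in one model, with Benjamini-Hochberg adjustment over 5772 ORFs and a threshold of 0.01. Normalized CPM use these factors. Isoform ratios were compared by exact permutation of 4 against 16 libraries, which treats the 16 as exchangeable. They come from 4 strains, whose means differed in the ratio of *COX5B* to *COX5A*. By rule, values were given for *HAP4*, the isoform pairs and *NDI1*, for the 2 members of each other group with the largest change in each main comparison, and for at most 2 genes per related list and comparison. Other members named with values, such as *COX8*, *IDH1* and *ATP7*, were chosen after their values were seen. The members and lists were chosen with earlier results of these data known. The sides of the comparison of SFL1 and HEK2 with SAN1 and ROF1 match pairs that the paper reports as similar in these data. What the replicate numbers stand for is not given in the sources used here, and p-values measure the spread between these samples. The alternatives were other scalings, filters, thresholds and tests (DESeq2 1.42.0 among them), a replicate block, and leaving out each library.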

Additional observations from a re-analysis of the deposited data

Results flagged for a closer look

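Some libraries lay far from the other 3 of their strain. Of 160 groups of 4 libraries examined 10 held such a value, where chance alone gives about 1 in 20, or 8. In HEK2 replicate 4, *HAP4* was at 784 CPM (the others 703 to 708), *NDE2* at 85 CPM (52.7 to 58.2) and the log2 ratio of *NDE2* to *NDE1* at −3.41 (−3.88 to −3.80). In SAN1 replicate 2, *KGD1* was at 1036 CPM (1173 to 1200) and complex II summed to 9731 CPM (11037 to 11125). *NDE1* was at 1213 CPM in SAN1 replicate 1 (928 to 966) and at 841 CPM in ROF1 replicate 4 (1034 to 1071). In SFL1, *QCR7* was at 1124 CPM in replicate 1 (1184 to 1192) and *ATP15* at 632 CPM in replicate 3 (572 to 573). *CYC7* was at 1003 CPM in TOS8 replicate 1 (921 to 928).

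The 7 mitochondrially encoded subunits, which entered no comparison, had 976 counts in total over the 20 libraries, 10 to 247 in a library and 0.00027% of all counts, in libraries made from poly(A) RNA.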

How the results depend on the processing

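No called member changed sign in TOS8 or in SFL1 and HEK2 against SAN1 and ROF1, while 8 values near 0 that did not pass did, such as *CIT1* in TOS8 (−0.04 to 0.02) and *QCR2* in SFL1 and HEK2 (−0.05 to 0.01). Of the members called, 19 of 24 in TOS8 and 22 of 27 in SFL1 and HEK2 passed in each of 28 and 25 alternatives, which leave out those that change the threshold itself. Requiring a fold change above 1.5 as well left 2 members in TOS8 and 0 in SFL1 and HEK2, and, by pair, 5 in TOS8 against SFL1, 8 in TOS8 against HEK2, 2 in TOS8 against SAN1, 1 in TOS8 against ROF1, 0 in SFL1 against HEK2, 0 in SFL1 against SAN1, 1 in SFL1 against ROF1, 1 in HEK2 against SAN1 and 0 in HEK2 against ROF1. An adjusted p below 0.05 gave 19 in TOS8 against SAN1, 17 in TOS8 against ROF1, 2 in SAN1 against ROF1, 17 in SFL1 against SAN1, 26 in SFL1 against ROF1, 26 in HEK2 against SAN1 and 31 in HEK2 against ROF1. The ORF shares given above hold for the main setting only, so no background stands beside the counts under other settings, here or above. DESeq2 gave 2 in SAN1 against ROF1, 13 in SFL1 against SAN1 and 22 in SFL1 against ROF1. Fitting only the libraries compared, which leaves fewer samples to estimate the spread, gave 2 in SFL1 against SAN1, 1 in HEK2 against SAN1 and 3 in HEK2 against ROF1. The cause of these differences between settings was not tested. Leaving out 1 library gave 19 to 29 in TOS8 and 22 to 36 in SFL1 and HEK2, and, by pair, 23 to 31 in TOS8 against SFL1, 24 to 37 in TOS8 against HEK2, 6 to 12 in TOS8 against SAN1, 4 to 12 in TOS8 against ROF1, 0 to 2 in SAN1 against ROF1, 2 to 6 in SFL1 against SAN1, 6 to 19 in SFL1 against ROF1, 4 to 9 in HEK2 against SAN1 and 7 to 21 in HEK2 against ROF1. The difference in the log2 ratio of *COX5B* to *COX5A* ranged over −0.76 to −0.62 and that of *NDE2* to *NDE1* over 0.34 to 0.47. Libraries with the same replicate number correlated above 0.1 in 6 of 10 strain pairs but not in all (−0.0879 to 0.291, mean 0.114, with 8 of 20 libraries closest to their own number), so whether the numbers pair the samples is not settled. A replicate block gave 24 members in TOS8 and 25 in SFL1 and HEK2, where *COX9* and *QCR10* no longer passed. The lowest raw count of a member in any library was 340, and the part of depth in these results was not tested.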
